A study of Mus musculus with 12 samples.

Results

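Interferon-gamma (IFN-γ) and interleukin-4 (IL-4) were set directly against each other in mouse bone marrow-derived macrophages labelled CKO. These are macrophages grown in culture from marrow precursors. The contrast rests on 4 of the 12 RNA-seq libraries of the series: 2 libraries of CKO macrophages given IFN-γ at 100 U/mL and 2 libraries of CKO macrophages given IL-4 at 20 ng/mL, each for 24 h. The same contrast in wild-type (WT) macrophages, with 2 libraries per cytokine, was used to test where CKO and WT differed. The 2 untreated CKO libraries, which received no cytokine, were used only to describe levels. Of these, library 1 was known from earlier work on these data to stand apart, so the untreated libraries were left out of the fit. The labels do not spell out CKO, and they name neither the deleted gene, nor a Cre driver, nor a strain, sex or age. IRF8, a transcription factor, is named in the title of the series. The labels also do not say whether libraries 1 and 2 of a group came from separate animals or cultures, so the p-values measure the spread between these libraries, which may be technical.

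IFN-γ, made mainly by T cells and NK cells, binds its receptor on the macrophage and acts through the kinases JAK1 and JAK2 on genes that carry the palindromic GAS element. The transcription factors induced in this way, IRF1 and IRF8 among them, then act on a wider set of genes for killing of intracellular microbes, antigen presentation and recruitment of T cells. IL-4, a cytokine of allergy, worm infection and wound repair, acts through IL-4Rα and STAT6 and turns on arginase, mannose receptor, chitinase-like and resistin-like proteins and other markers of what is often called alternative activation. The pair is therefore commonly used to place macrophages at opposite ends of one range of states.

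Of 48440 genes in the count table, 15986 had enough counts to be tested. At an adjusted p under 0.05 (edgeR's quasi-likelihood test over the 8 cytokine-treated libraries, Benjamini-Hochberg), 5293 genes, or 33.1%, differed between IFN-γ and IL-4 in CKO macrophages. Of all genes tested, 2816 (17.6%) were higher after IFN-γ and 2477 (15.5%) were lower. Large increases outnumbered large decreases by fitted fold: 605 genes were at least 4-fold higher against 341 at least 4-fold lower, and 99 against 55 passed 64-fold. These counts include genes with almost no counts in one group, such as Cxcl9 and Retnla, whose fitted fold depends on edgeR's prior count. The genes at least 4-fold higher held 9.30% and 9.05% of all counts in the IFN-γ libraries, against 0.972% and 0.797% in the IL-4 libraries. The genes at least 4-fold lower held 0.190% and 0.205% of counts in the IFN-γ libraries, against 2.24% and 2.27% in the IL-4 libraries. The median log2 fold change over all genes was -0.02. The groups did not overlap in 10845 genes (67.8%), and in all 5293 of the called genes. The count of calls was 3358 without IFN-γ CKO library 1, and the number lower was 1400 without that library and 1428 without IFN-γ CKO library 2.

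**Figure D1:**
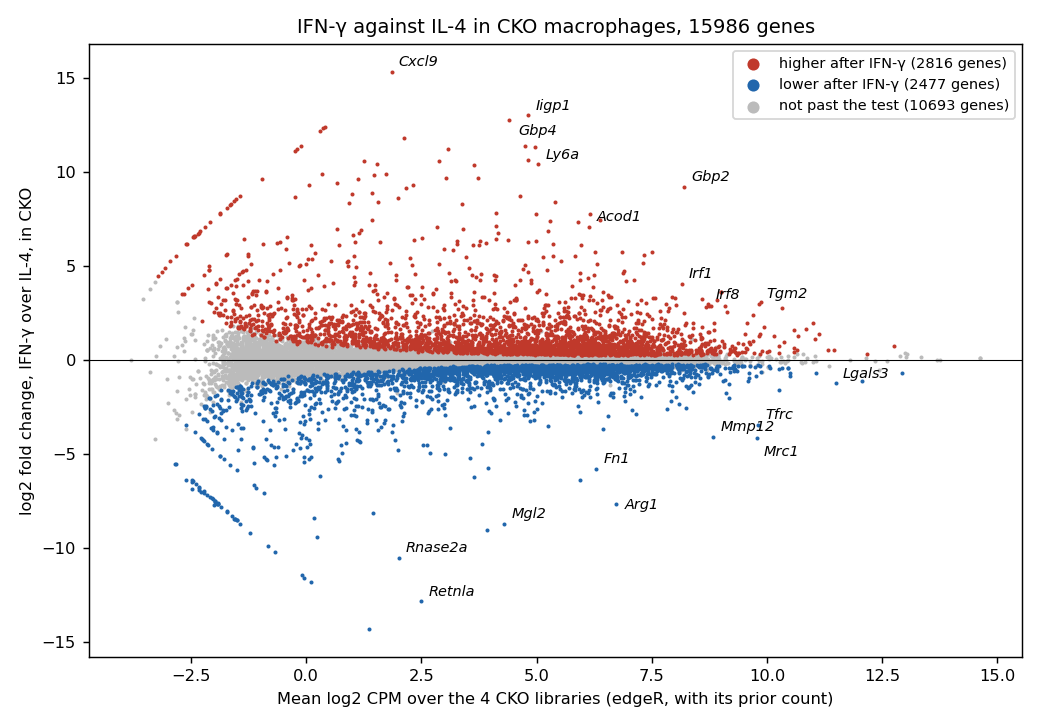
Each point is 1 of the 15986 genes tested, with its mean log2 CPM (counts scaled for library size) over the 4 CKO libraries on the x axis and its log2 fold change, IFN-γ over IL-4, on the y axis. Red marks the 2816 genes higher after IFN-γ, blue the 2477 lower and grey the 10693 not past the test, and the points above 10 include the GTPase genes Iigp1 and Gbp4. Fitted values of genes with almost no counts in one group, such as Cxcl9 and Retnla, depend on edgeR's prior count and are no measured fold.

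Irf8, which the series title names and which encodes a transcription factor of myeloid cells and of the interferon response, had 1203 and 1172 CPM in the IFN-γ CKO libraries, against 169 and 139 CPM in the IL-4 CKO libraries and 294 and 248 CPM in the untreated CKO libraries. CPM here are counts scaled to the library's total and its TMM factor and not to gene length, so levels are compared within a gene and not between genes. Both IFN-γ libraries lay above the other 4 CKO libraries, and the log2 fold change was 2.95 ± 0.11 (SE; adjusted p = 3.16e-08, edgeR). These counts sum all exons, so they cannot show whether part of the gene was removed. Lyz2, the lysozyme gene of myeloid cells, had only 12.6 and 15.7 CPM in IFN-γ CKO and 15 and 15.8 CPM in IL-4 CKO, against 6023 and 5829 CPM in IFN-γ WT and 7659 and 6505 CPM in IL-4 WT. It did not differ past the test between the cytokines in CKO (log2 fold change -0.13 ± 0.13, adjusted p = 0.51).

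The 4 CKO libraries held 28021889 to 32626864 counts, within a range of 21287725 to 32717379 over the series. Mitochondrial genes took 2.53% and 2.57% of counts in the IFN-γ libraries against 3.21% and 3.10% in the IL-4 libraries. Markers of the macrophage were expressed in all 4: Csf1r, the receptor for the growth factor that sustains macrophages, had 1688 and 1605 CPM after IFN-γ and 1706 and 1299 CPM after IL-4. Adgre1, which encodes F4/80, had 1185 and 1133 CPM after IFN-γ and 1035 and 953 CPM after IL-4. Neither passed the test, and each was higher after IFN-γ with a call when IL-4 CKO library 1 was left out. Of the 16 macrophage markers, 9 rose and 3 fell, beside 17.6% and 15.5% of all genes. Their summed CPM was 14015 to 14579 after IFN-γ against 10285 to 11823 after IL-4. Among those that rose were Fcgr1 and Aif1, with log2 fold changes of 5.52 and 4.46. Among the 3 that fell were Lgals3 and Cd33, with -1.26 and -1.24. Fcgr1, Cd14 and Msr1, all higher after IFN-γ, also stand below as genes of an IgG receptor, a Toll-like co-receptor and a scavenger receptor. The summed CPM of the monocyte and progenitor markers was 555 to 570 after IFN-γ against 381 to 459 after IL-4, with 9 of 14 higher and 1 lower. The neutrophil sum was 594 to 610 against 469 to 553, with 11 of 20 tested markers higher and 1 lower. The dendritic cell sum was 339 to 353 against 124, with 5 of 12 tested higher and 2 lower, of which Bst2 is also an antiviral gene and Ccl22 also an IL-4 gene of the lists used here.

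Markers of more distant cell types were few, and their calls stand beside 17.6% of all genes higher after IFN-γ and 15.5% lower. Of the 18 T and NK cell markers, 10 had no count in any of the 4 libraries, Cd3e, Trac and Ifng among them, and the summed CPM was 60.5 to 72.4 after IFN-γ against 84.0 to 110.0 after IL-4, with all 3 tested markers lower. The B cell sum was 15.5 to 16.6 after IFN-γ against 10.6 to 12.5 after IL-4, with none of 3 past the test and Cr2 at 0. The mast cell and basophil sum was 5.87 to 7.03 against 0.732 to 1.25, with 1 of 3 higher and Cma1, Fcer1a, Mcpt4 and Tpsb2 at 0. The eosinophil sum was 2.78 to 2.86 against 5.09 to 6.27, with 3 of 3 lower and Epx at 0. The stromal sum was 5.16 to 5.79 against 14.2 to 16.7, with 1 of 4 lower, and the erythroid sum was 0.527 to 0.557 against 1.11 to 1.18, with the 1 tested lower. Without IFN-γ CKO library 1, 1 T and NK cell marker, 1 eosinophil marker and no erythroid marker was lower, and without IL-4 CKO library 1 the numbers were 1 T and NK cell marker lower and 2 mast cell markers higher. The libraries were made with an exome capture kit, so a gene at 0 may not have been targeted, which was not checked. In bulk RNA, fewer cells of a type and less RNA per cell cannot be told apart, and the part of these markers in the results that follow was not tested.

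The IFN-γ receptor chains and their kinases differed little, and several transcription factors downstream of them were far higher after IFN-γ. Of 18 genes of IFN-γ signalling, 14 were higher after IFN-γ and 2 lower, beside 17.6% and 15.5% of all genes. The median log2 fold change was 2.09 against -0.02 over all genes. Irf1, a factor of the interferon response, had 1195 and 1173 CPM after IFN-γ and 87.8 and 55.1 CPM after IL-4, a log2 fold change of 4.05 ± 0.19 (adjusted p = 1.60e-07). Irf7, a driver of type I interferon genes, had 203 and 193 CPM against 7.48 and 6.79 CPM (4.79 ± 0.13, adjusted p = 4.51e-09). The feedback inhibitor Socs3 had 68.3 and 57 CPM after IFN-γ and 2.08 and 2.14 CPM after IL-4. Its relative Socs1 had 57.7 and 42.4 CPM against 9.43 and 8.05 CPM, with 0.381 and 0.260 CPM in untreated CKO macrophages, and its call was lost on leaving out either IL-4 library. The receptor chain Ifngr1 had 125 and 119 CPM after IFN-γ and 139 and 116 CPM after IL-4 and did not pass the test (adjusted p = 0.675), nor did Jak1. The 2 members that fell were Ifngr2, by 0.31, and Jak2, by 0.34 on the log2 scale, and both calls were lost on leaving out either IFN-γ library, that of Ifngr2 also without IL-4 CKO library 1.

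The interferon-induced GTPases had the highest median of the 25 pathway lists. They are proteins that gather on the vacuoles of intracellular bacteria and parasites. All 20 genes of this list were higher after IFN-γ, beside 17.6% of all genes. The median log2 fold change was 8.09, with a range of 3.59 to 12.99. Iigp1 had 2338 and 2386 CPM in the IFN-γ CKO libraries, against 0.208 and 0.351 CPM in the IL-4 CKO libraries and 0.571 and 0.347 CPM in the untreated ones, a log2 fold change of 12.99 ± 0.20 (adjusted p = 1.91e-10). Gbp4, a guanylate-binding protein gene on chromosome 5 (105115767 to 105139586, minus strand, GRCm38), had 1515 and 1576 CPM against 0.277 and 0.176 CPM (12.73 ± 0.19 on the log2 scale). Gbp2, on chromosome 3 (142620602 to 142638008), had 7547 and 7275 CPM against 17.3 and 8.22 CPM (9.19 ± 0.34). The smallest increase of the list was that of Gvin1, with 1827 and 1797 CPM after IFN-γ and 179 and 121 CPM after IL-4. Tgtp1, on chromosome 11, had 1299 and 1344 CPM against 0.485 and 0.497 CPM, and its neighbour Tgtp2 had 1488 and 1524 CPM against 0.624 and 0.556 CPM. These are near-identical copies, so reads may be shared between them and their single values are uncertain. Related members of the Gbp and Ifit families may share reads as well.

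Outside the GTPases, the largest increases among well-expressed genes included Ly6a and Clic5. Ly6a, which encodes the surface protein Sca-1 of blood stem cells and activated leukocytes, had 1148 and 1197 CPM after IFN-γ and 0.901 and 0.819 CPM after IL-4 (10.41 ± 0.18, adjusted p = 2.97e-10). Clic5, of the intracellular chloride channel family, had 509.6 and 502 CPM against 1.56 and 0.878 CPM (8.72 ± 0.20, adjusted p = 1.63e-09). The protease inhibitor gene Serpina3g had 1166 and 1021 CPM against 0.936 and 0.468 CPM, and it stands in a cluster of close relatives that may share its reads.

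Several of the largest increases lay beside each other in the genome. Of the 100 largest increases, 54 had another within 200000 bases, in 15 groups of up to 7 genes. Of the 100 largest decreases, 22 did, in 11 groups of 2. The group of 7 lay on chromosome 5 between 105014150 and 105346472 and held Gbp4, Gbp6, Gbp8, Gbp9, Gbp10, Gbp11 and a predicted gene. A group of 5 on chromosome 19, between 34550694 and 34650009, held the Ifit genes, and one of 3 on chromosome 5, between 92321347 and 92365485, was Cxcl9, Cxcl10 and Cxcl11. Copies of one family can share reads, and the counts were not tested against other gene sets.

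The promoters of a GTPase, a chemokine and an IL-4 marker are shown. The candidates in each list were the genes named by rule, so those chosen after their values were seen, Retnla among them, were left out. From each list the candidate with the largest change was taken among those matched in the table that held one of the motifs searched. A match is therefore present by choice. Each is the RefSeq window on GRCm38.p6 from 250 bases before to 50 bases after the gene's start, written 5′ to 3′ on the gene's strand. Capitals mark matches, on either strand, to TTCNNNGAA (GAS), to TTC, any 4 bases and GAA (the STAT6 type, 1 base wider) or to GAAA, any 2 bases and GAAA (ISRE, the type bound by IRF proteins).
Tgtp1, chr11:48992197-48992496, minus strand: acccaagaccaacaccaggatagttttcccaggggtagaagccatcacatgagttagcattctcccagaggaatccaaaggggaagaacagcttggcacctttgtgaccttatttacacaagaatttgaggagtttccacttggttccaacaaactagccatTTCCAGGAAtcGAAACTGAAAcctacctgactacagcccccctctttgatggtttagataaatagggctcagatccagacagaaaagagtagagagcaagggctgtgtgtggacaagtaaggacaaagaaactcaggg
Cxcl10, chr5:92348840-92349139, minus strand: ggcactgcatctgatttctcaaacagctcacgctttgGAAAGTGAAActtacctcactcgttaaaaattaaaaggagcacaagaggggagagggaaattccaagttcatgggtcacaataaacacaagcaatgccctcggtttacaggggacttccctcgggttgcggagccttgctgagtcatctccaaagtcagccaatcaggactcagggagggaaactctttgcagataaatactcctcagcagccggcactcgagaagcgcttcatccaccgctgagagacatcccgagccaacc
Tmem26, chr10:68723496-68723795, plus strand: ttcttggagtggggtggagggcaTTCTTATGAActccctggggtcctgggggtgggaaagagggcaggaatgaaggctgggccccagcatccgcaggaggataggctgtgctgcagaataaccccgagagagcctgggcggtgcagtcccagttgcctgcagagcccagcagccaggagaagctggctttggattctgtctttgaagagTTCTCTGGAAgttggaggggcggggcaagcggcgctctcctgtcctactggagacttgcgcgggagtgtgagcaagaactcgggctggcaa
In Tgtp1 a GAS match, TTCCAGGAA, lay at bases -88 to -80 from the start, and an ISRE match, GAAACTGAAA, at -77 to -68. In Cxcl10 the ISRE match GAAAGTGAAA lay at -213 to -204. In Tmem26 the STAT6-type matches were TTCTTATGAA at -227 to -218 and TTCTCTGGAA at -41 to -32. Over all 32851 promoters of the table, 8.3% held a GAS match, 6.95% a STAT6-type match and 3.44% an ISRE match. A match is a description of the letters, not a binding site. The windows of Cxcl9 and Rnase2a, passed over for Cxcl10 and Tmem26, and those of Ccl22 and Ccl9 held none of these letters. Iigp1 and Gbp4, with larger changes than Tgtp1, and Ccl24, with a larger change than Tmem26, had no window in the table and were not searched. The table held promoters for 60.9% of the genes tested, 68.4% of those that rose and 69.4% of those that fell. Shares of motifs were not compared between these sets.

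The antiviral interferon-stimulated genes also all rose: 44 of 44 were higher after IFN-γ, beside 17.6% of all genes. The median log2 fold change was 3.67. Ifit3, of the Ifit family, had 358 and 352 CPM after IFN-γ and 0.485 and 0.380 CPM after IL-4 (9.68 ± 0.17 on the log2 scale, adjusted p = 2.97e-10). Isg15, a ubiquitin-like modifier, had 97.2 and 104 CPM against 1.52 and 1.38 CPM, and Mx1, a dynamin-like GTPase that blocks influenza virus, had 70.0 and 64.7 CPM against 1.07 and 1.29 CPM. The smallest increase was that of Tor3a, with 104 and 99.8 CPM against 68.3 and 62.2 CPM. For Isg15 the untreated level of 1.64 and 1.76 CPM was close to that after IL-4, whereas Ifit3 stood at 3.62 and 1.76 CPM in untreated CKO macrophages, above both IL-4 libraries.

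Antigen presentation was higher after IFN-γ in both classes, where the counts stand beside 17.6% of all genes higher and 15.5% lower. In the class I pathway, which shows peptides of the cell's own proteins to CD8 T cells, 21 of 23 genes rose and 1 fell (median 2.37). The peptide transporter gene Tap1 had 543 and 515 CPM after IFN-γ and 30.6 and 27.1 CPM after IL-4 (4.20 ± 0.11, adjusted p = 4.00e-09). The immunoproteasome subunit Psmb8 had 576 and 582 CPM against 61.6 and 57.7 CPM. B2m, the invariant light chain, had 3407 and 3346 CPM against 583 and 438 CPM. The member that fell was the chaperone Canx, by 0.35 on the log2 scale, a call lost on leaving out either IFN-γ library. In class II, which shows engulfed material to CD4 T cells, 11 of 12 genes rose and none fell (median 3.16), and the 12th, Ifi30, had a log2 fold change of -0.14. The class II transactivator Ciita had 159 and 153 CPM against 5.68 and 3.92 CPM, with 1.26 and 0.896 CPM in untreated CKO macrophages. The class II chain H2-Aa had 621 and 552 CPM after IFN-γ, 25.5 and 23.2 CPM after IL-4 and 12 and 7.46 CPM without cytokine, so both cytokine groups lay above the untreated libraries.

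Costimulatory and checkpoint ligands split. Of 18, 10 were higher after IFN-γ and 4 lower, beside 17.6% and 15.5% of all genes. Cd274, which encodes PD-L1, the ligand that restrains T cells through PD-1, had 901 and 754 CPM after IFN-γ and 106 and 62.5 CPM after IL-4 (3.29 ± 0.23, adjusted p = 4.49e-06), against 21.5 and 14.5 CPM without cytokine. The second PD-1 ligand, Pdcd1lg2, went the other way, with 0.226 and 0.223 CPM after IFN-γ and 12.4 and 6.61 CPM after IL-4 (-5.37 ± 0.41, adjusted p = 5.29e-06). The CD28 ligands split as well: Cd86 had 50.0 and 45.1 CPM against 5.93 and 4.57 CPM, and Cd80 had 4.29 and 4.42 CPM against 7.31 and 9.45 CPM.

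**Figure D2:**
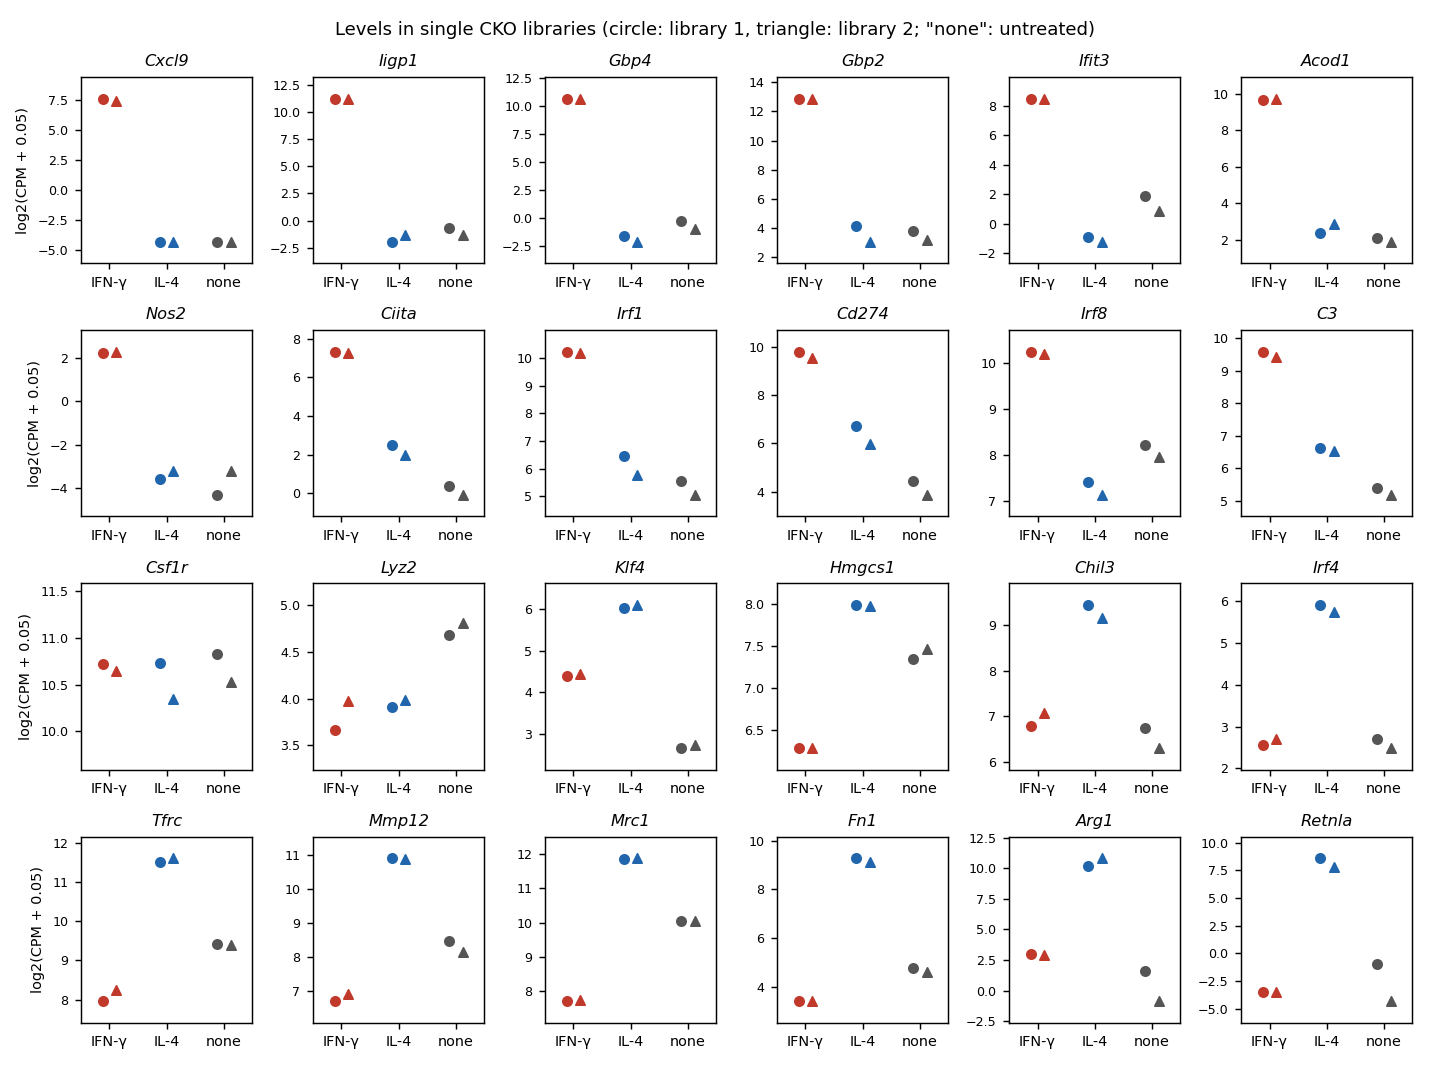
Each panel plots 1 gene in the 6 CKO libraries, as log2(CPM + 0.05) on its own y axis, with IFN-γ in red, IL-4 in blue and untreated libraries in grey, and circles for library 1 and triangles for library 2. In the 12 upper panels both IFN-γ libraries lay above the other 4, in the last row both IL-4 libraries did, and the groups overlapped for Csf1r and Lyz2.

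Of 18 chemokine ligands tested, 10 rose after IFN-γ and 5 fell, beside 17.6% and 15.5% of all genes. The ligands of CXCR3, a receptor of activated T cells, had almost no counts after IL-4. Cxcl9 had 194 and 174 CPM after IFN-γ and no count in either IL-4 library, which makes it at least 3866-fold higher against a floor of 3 counts over the IL-4 group. Cxcl10 had 4854 and 4855 counts after IFN-γ against 0 and 3 after IL-4, a ratio of 3812 with a 95% exact counting interval of 1304 to 18487. Cxcl11 had 1.88 and 1.45 CPM after IFN-γ and none after IL-4, at least 34.9-fold higher. In the other direction, Ccl24, an eosinophil attractant, had 0 and 1 counts after IFN-γ against 545 and 445 after IL-4, a ratio of 0.00119 with an interval of 0.0000301 to 0.00664. Ccl22, which draws cells through CCR4, had 0.0752 and 0.149 CPM after IFN-γ and 8.21 and 8.87 CPM after IL-4 (-6.20 ± 0.27, adjusted p = 9.70e-08). Of 9 chemokine receptors tested, 6 rose and 2, Cxcr4 and Ccr3, fell, with the call of Ccr3 lost on leaving out either IFN-γ library or IL-4 CKO library 2. Cxcr4, the receptor for CXCL12, had 6.06 and 6.35 CPM after IFN-γ and 53.4 and 33.8 CPM after IL-4. Counting intervals and floors cover counting error only.

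Of 16 cytokine genes tested, 12 (75%) rose and 2 (12.5%) fell, beside 17.6% and 15.5% of all genes. The 2 that fell were Tgfb1, whose call was lost on leaving out any 1 of the 4 libraries, and Osm, whose call was lost on leaving out either IL-4 library or IFN-γ CKO library 2. Il12rb1, the receptor chain for IL-12 and IL-23, had 116 and 105 CPM after IFN-γ and 1.59 and 1.64 CPM after IL-4 (6.09 ± 0.14, adjusted p = 1.63e-09). Il18bp, the soluble trap of IL-18, rose by 5.23 on the log2 scale, and Tnfsf10, which encodes the death ligand TRAIL, had 63.3 and 57.2 CPM against 1.25 and 0.790 CPM. Tnf had 84.9 and 77.9 CPM after IFN-γ and 3.19 and 3.95 CPM after IL-4, and its call was lost on leaving out either IL-4 library. Il6, Il12a, Il12b, Il23a, Ifnb1 and Lif had too few counts to be tested. Il1b rose but had few counts, with 2.29 and 1.75 CPM after IFN-γ and 0.173 and 0.234 CPM after IL-4, and Il10 likewise, with 1.02 and 1.15 CPM against 0.243 and 0.176 CPM.

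Innate sensors and complement rose more often than they fell, where 17.6% of all genes rose and 15.5% fell. Of 27 Toll-like receptor and inflammasome genes, 22 were higher after IFN-γ (median 1.21) and 2, Tlr7 and Tlr8, were lower, with the call of Tlr8 lost on leaving out either IFN-γ library or IL-4 CKO library 1. Tlr3, the endosomal sensor of double-stranded RNA, had 42.8 and 43.2 CPM after IFN-γ and 6.48 and 6.58 CPM after IL-4. Casp1, the protease that activates IL-1β and IL-18, had 346 and 365 CPM against 65.5 and 57.2 CPM. Tlr4, the receptor for lipopolysaccharide, had 242 and 241 CPM against 229 and 229 CPM and did not pass the test (adjusted p = 0.558), whereas its co-receptor Cd14 had 45.8 and 43.2 CPM against 10.4 and 12.5 CPM (1.95 ± 0.13, adjusted p = 2.05e-06). Of 24 complement and Fc receptor genes tested, 20 rose and 3 fell (median 2.48). The high-affinity IgG receptor Fcgr1 had 292 and 275 CPM after IFN-γ and 5.27 and 6.96 CPM after IL-4 (5.52 ± 0.15), while the inhibitory IgG receptor Fcgr2b had 98.5 and 87.1 CPM against 629.7 and 518 CPM (-2.63 ± 0.13). The central component C3 had 767 and 691 CPM against 98.9 and 92.4 CPM, and all 3 chains of C1q rose, C1qa, C1qb and C1qc, by 3.21, 2.74 and 2.57 on the log2 scale. C4b had 70.3 and 67.3 CPM against 0.104 and 0.234 CPM, and reads of its copy C4a may be shared with it.

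IL-4 signalling genes moved both ways. Of 18, 7 were higher after IFN-γ and 10 lower, beside 17.6% and 15.5% of all genes, with a median of -0.95. The 7 were the receptor chains Il4ra, Il2rg and Il13ra1, the kinases Jak3 and Tyk2, Stat6 and the phosphatase Ptpn6. The 10 were Egr2, Irf4, Klf4, Myc, Pparg, Ppargc1b, Nfil3, Irs2, Cish and Socs2. The receptor chain Il4ra had 413 and 384 CPM after IFN-γ and 139 and 129 CPM after IL-4 (1.57 ± 0.09, adjusted p = 5.05e-07). The common γ chain Il2rg had 129 and 132 CPM against 16 and 15.3 CPM, and Il13ra1, which forms the type II receptor, had 55.5 and 58.3 CPM against 2.81 and 2.31 CPM. Untreated CKO macrophages had 149 and 157 CPM of Il4ra, above the level after IL-4 and far below that after IFN-γ, and 10.7 and 8.03 CPM of Il13ra1, between the groups. Stat6 rose by 0.33 on the log2 scale, a call lost on leaving out either IFN-γ library. Egr2, a factor of the late IL-4 program, had 2.26 and 1.63 CPM after IFN-γ and 85.1 and 59.8 CPM after IL-4 (-5.22 ± 0.23, adjusted p = 9.69e-08). Irf4 had 5.87 and 6.50 CPM against 60.0 and 53.2 CPM, Klf4 had 20.9 and 21.8 CPM against 65.1 and 68 CPM, and Cish, a feedback inhibitor, had 1.47 and 1.08 CPM against 33.6 and 24.6 CPM. In Klf4 both cytokine groups lay above the untreated libraries (6.32 and 6.71 CPM), in contrast to Irf4 (6.43 and 5.55 CPM), where the IFN-γ libraries overlapped them.

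The IL-4 effector genes formed the lower end of the contrast: 25 of 28 tested were lower after IFN-γ, beside 15.5% of all genes. None was higher, and the median log2 fold change was -3.92. Without IL-4 CKO library 1, 1 was called higher. Retnla, a resistin-like protein of allergic and parasitic inflammation, had 1 and 1 counts after IFN-γ against 11142 and 7705 after IL-4, a ratio of 0.000125 with a 95% exact counting interval of 0.0000151 to 0.000452. Arg1, which splits arginine into ornithine and urea, had 7.71 and 7.39 CPM after IFN-γ and 1207 and 1839 CPM after IL-4 (-7.66 ± 0.24, adjusted p = 1.12e-08), against 2.97 and 0.491 CPM without cytokine. Mgl2, a galactose lectin, had 1.13 and 0.780 CPM against 302 and 506 CPM (-8.72 ± 0.32), and Tmem26, whose promoter is printed above, had 0.376 and 0.928 CPM against 343 and 363 CPM (-9.07 ± 0.24). The mannose receptor Mrc1 had 207 and 211 CPM after IFN-γ, 3717 and 3781 CPM after IL-4 and 1056 and 1058 CPM without cytokine, so IFN-γ lay below and IL-4 above the untreated level. Fn1, fibronectin, had 10.8 and 10.5 CPM against 625 and 557 CPM (-5.79 ± 0.17). The chitinase-like Chil3 had 111 and 134 CPM against 693 and 571 CPM, a log2 fold change of -2.37 ± 0.22, with 108 and 78.9 CPM without cytokine, near the IFN-γ libraries. The 3 not past the test were Ch25h, Flt1 and Cd83, with log2 fold changes of -1.75, 0.03 and 0.40, and Ccl17 and Alox15 had too few counts to be tested.

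Among arginine, nitric oxide and polyamine genes, the enzymes that compete for arginine moved in opposite directions. Of 17 genes, 3 were higher after IFN-γ, near the share of 17.6% among all genes, and 6 were lower, beside 15.5% of all genes. Nos2, inducible nitric oxide synthase, had 125 and 131 counts after IFN-γ against 1 and 2 after IL-4, a ratio of 101 with a 95% exact counting interval of 34.0 to 491. The IFN-γ libraries had 4.70 and 4.86 CPM in CKO and 13.6 and 11 CPM in WT. The cationic amino acid transporter Slc7a2 went with Arg1, with 25.8 and 23.4 CPM after IFN-γ and 319.6 and 309 CPM after IL-4 (-3.68 ± 0.13, adjusted p = 2.16e-08). Acod1, the enzyme that makes itaconate from a TCA cycle intermediate, had 815 and 854 CPM after IFN-γ against 5.16 and 7.08 CPM after IL-4 (7.08 ± 0.16, adjusted p = 1.63e-09). Of the 20 itaconate and TCA cycle genes, 9 (45%) were lower and 2 (10%), Acod1 and Sdhb, higher. Idh1, which makes NADPH in the cytosol, had 171 and 159 CPM after IFN-γ and 408 and 311 CPM after IL-4. The count of lower genes was 5 on leaving out either IFN-γ library, and the call of Sdhb was lost as well.

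Genes of sterol and fatty acid synthesis were lower after IFN-γ almost throughout: 26 of 29 tested fell, beside 15.5% of all genes. None rose, and the median log2 fold change was -1.25. Mvd, of the mevalonate pathway, had 12.6 and 13 CPM after IFN-γ and 63.7 and 60.5 CPM after IL-4 (-2.28 ± 0.11, adjusted p = 1.51e-07). Hmgcs1 had 78.2 and 78 CPM against 253 and 249.9 CPM, with 162 and 176 CPM without cytokine, between the groups. Fasn, fatty acid synthase, had 75.2 and 82.3 CPM against 259.9 and 361 CPM. Fatty acid oxidation fell in 10 of 20 genes (50%) and rose in 2 (10%, beside 17.6% of all genes), all by less than 2-fold. Acads, a short-chain acyl-CoA dehydrogenase, fell by 0.85 on the log2 scale. The 2 that rose were Acsl1 and Acadvl, the call of Acadvl being lost without IFN-γ CKO library 2 or IL-4 CKO library 2. Glycolysis rose in 15 of 19 genes and fell in none, with a median of 0.64. The hexokinase Hk3 had 1821 and 1833 CPM after IFN-γ and 562 and 518 CPM after IL-4 (1.76 ± 0.09), and the lactate exporter Slc16a3 had 63 and 64.6 CPM against 24.1 and 27.6 CPM. Ldha, lactate dehydrogenase, had 499 and 527 CPM against 550.1 and 638 CPM and did not pass the test (adjusted p = 0.116), but was called lower without IL-4 CKO library 1.

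**Figure D3:**
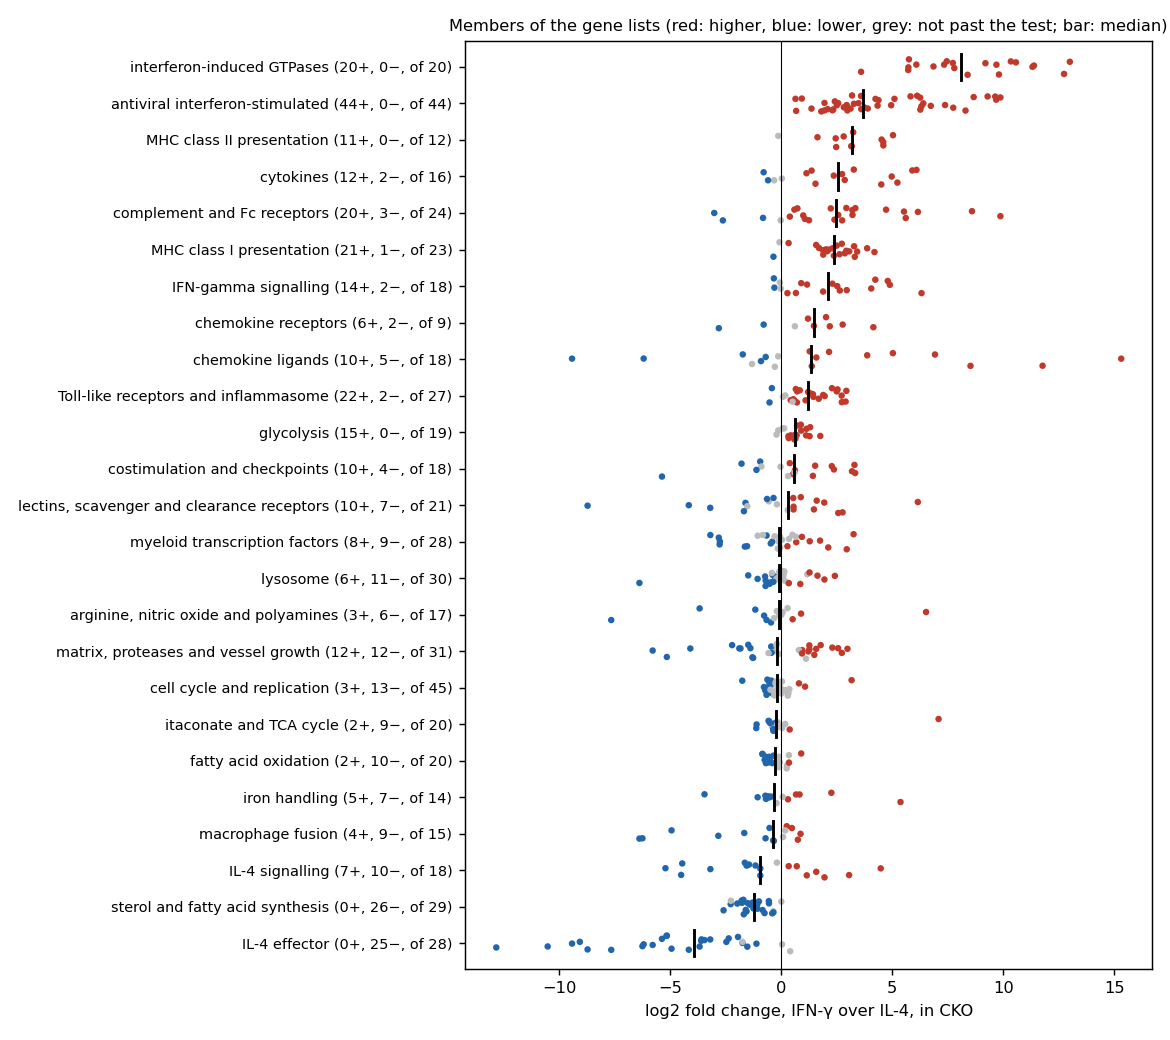
Each row is 1 of 25 gene lists and each point 1 tested member at its log2 fold change, IFN-γ over IL-4, in CKO, in red where higher, blue where lower and grey where not past the test. The black bar is the list's median, and the row label gives the members higher (+), lower (−) and tested, from 20 of 20 higher for the GTPases at the top to 25 of 28 lower for the IL-4 effector genes at the bottom, and the values beyond 9 in size of Cxcl9, Cxcl10, Cfb, Apol9a, Ccl24 and Retnla depend on the prior count.

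Among genes of the lysosome, iron handling and fusion, a few members moved far and most moved little. The counts for all 3 lists stand beside 17.6% of all genes higher and 15.5% lower. Atp6v0d2, a subunit of the proton pump found in osteoclasts and fused macrophages, had 7.64 and 6.05 CPM after IFN-γ and 691 and 456 CPM after IL-4 (-6.39 ± 0.23, adjusted p = 2.86e-08). The integrin Itgb3 had 1.47 and 1.34 CPM against 112 and 102 CPM, and Dcstamp, which is needed for cell fusion, fell by 2.84 on the log2 scale. Of 15 fusion genes tested, 9 fell and 4 rose. Of 30 lysosomal genes, 11 fell and 6 rose, beside 15.5% and 17.6% of all genes, and the counts were 7 and 6 lower without IFN-γ CKO libraries 1 and 2 and 10 higher without IL-4 CKO library 1. The protease gene Ctsh rose, with 297 and 244 CPM after IFN-γ against 59.7 and 41.8 CPM after IL-4, and Ctsc, whose product activates granule proteases, had 1043 and 800.0 CPM against 253 and 226 CPM. Tfrc, the transferrin receptor for iron uptake, had 248 and 302 CPM after IFN-γ and 2922 and 3113 CPM after IL-4 (-3.46 ± 0.13, adjusted p = 3.04e-08), with 684 and 669 CPM without cytokine between them. Fbxl5, the iron-sensing ubiquitin ligase, had 259.6 and 252 CPM against 52.7 and 54.2 CPM, and Slc11a1, which pumps metals out of the phagosome, had 586 and 549 CPM against 350.0 and 291 CPM. Of 14 iron genes tested, 5 rose and 7 fell, with 4 falling without IFN-γ CKO library 1.

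Matrix and vessel genes divided evenly, with 12 higher and 12 lower of 31 tested, beside 17.6% and 15.5% of all genes. Mmp12, macrophage elastase, had 103 and 119.9 CPM after IFN-γ and 1921 and 1887 CPM after IL-4 (-4.10 ± 0.13, adjusted p = 1.31e-08), and Mmp13 had 13.9 and 15.6 CPM against 61.7 and 75.1 CPM. Tgm2, transglutaminase 2, often listed as an IL-4 marker of human macrophages, was higher after IFN-γ, with 2609 and 2571 CPM against 345 and 312 CPM (2.98 ± 0.12, adjusted p = 5.76e-08). Vegfa, the main vessel growth factor, had 130.4 and 101 CPM after IFN-γ and 27.9 and 19.3 CPM after IL-4, and Hbegf, an EGF receptor ligand, had 0.150 and 0.149 CPM against 4.05 and 6.82 CPM. Scavenger and lectin receptors also split, with 10 of 21 tested higher and 7 lower. Msr1 rose, with 1522 and 1493 CPM after IFN-γ against 356 and 432 CPM after IL-4, and so did Marco, with 858 and 769 CPM against 276 and 262 CPM; both are class A scavenger receptors. Cd36, which takes up oxidised lipids, fell, with 706 and 711 CPM against 2146 and 2185 CPM.

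Counts over the cell cycle genes moved with single libraries. Of 45 genes, 13 were lower after IFN-γ and 3 higher, beside 15.5% and 17.6% of all genes, with a median of -0.20. Mki67, the proliferation marker Ki-67, had 297 and 315 CPM after IFN-γ and 907 and 1157 CPM after IL-4 (-1.76 ± 0.14, adjusted p = 5.74e-06), and the mitotic cyclin gene Ccnb1 had 46.4 and 52.5 CPM against 66.2 and 91.8 CPM. Ccnd2, a D cyclin of the start of the cycle, rose, with 72.5 and 75.5 CPM after IFN-γ against 5.16 and 11.1 CPM after IL-4. For Ccnd1 the IL-4 libraries were far apart, at 157 and 345 CPM, against 512 and 544 CPM after IFN-γ, and its call was lost on leaving out either IFN-γ library. The count of lower genes was 30 without IL-4 CKO library 1 and 8 without IFN-γ CKO library 1, and that of higher genes was 7 without IL-4 CKO library 2 and 1 on leaving out either IFN-γ library.

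Of 28 myeloid transcription factors, 8 (28.6%) rose and 9 (32.1%) fell, beside 17.6% and 15.5% of all genes. Besides Irf8 and Irf4, Bhlhe40 had 21.7 and 26.3 CPM after IFN-γ and 183 and 143 CPM after IL-4, and Ahr, the aryl hydrocarbon receptor, had 2.48 and 2.27 CPM against 20.2 and 13.3 CPM. Nr4a1, an orphan nuclear receptor, had 14.9 and 8.32 CPM after IFN-γ and 1.46 and 0.995 CPM after IL-4 (3.25 ± 0.32, adjusted p = 3.25e-05). Pparg, a lipid-sensing nuclear receptor tied to IL-4, fell, with 25.8 and 26.9 CPM against 76.6 and 67.5 CPM, while Nr1h3, the oxysterol receptor LXRα, rose, with 52.6 and 48.6 CPM against 21.6 and 20.0 CPM.

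Not all genes higher after IFN-γ than after IL-4 lay above the untreated level after IFN-γ. In untreated CKO library 2, 1788 of the 2816 genes lay between the means of the cytokine groups, 232 lay above the IFN-γ mean and 796 below the IL-4 mean. In untreated CKO library 1, the one known to stand apart, the numbers were 1604, 417 and 795. Its mitochondrial share was lower (1.52% against 3.14% in library 2). Of the 2477 lower genes, 1575 lay between in library 2, 509 above the IL-4 mean and 393 below the IFN-γ mean, and in library 1 the numbers were 1250, 519 and 708. Genes at least 4-fold lower held 0.519% and 0.526% of counts in the untreated libraries, between the shares after IFN-γ and after IL-4, and genes at least 4-fold higher held 1.16% and 0.985%, close to the IL-4 libraries. These are positions of values, with no test.

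The same contrast in WT macrophages came from other libraries, and the difference between the genotypes was tested in the same fit. Of the 5293 genes called in CKO, 92.1% had the same sign in WT, beside 74.7% of all 15986 genes tested. Of the 5293, 3465 were called in WT in the same direction and 68 in the opposite one. In WT 5004 genes (31.3%) were called. Across the 15986 genes, which are not independent replicates, Pearson's r of the log2 fold changes was 0.875 and Spearman's rho 0.686. The difference between the genotypes passed the test in 672 genes (4.2%), 435 (2.72%) with a more positive and 237 (1.48%) with a more negative log2 fold change in CKO. This number depended on single libraries: it was 1279 without IL-4 CKO library 1, and 188, 184, 215 and 187 without IL-4 WT library 1, IL-4 WT library 2, IFN-γ CKO library 1 and IFN-γ CKO library 2. Of all 672, 336 changed by more in CKO than in WT. By their CKO call, which favours larger changes in CKO, these were 243 of the 320 higher after IFN-γ, 93 of the 187 lower and 0 of the 165 with no call.

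**Figure D4:**
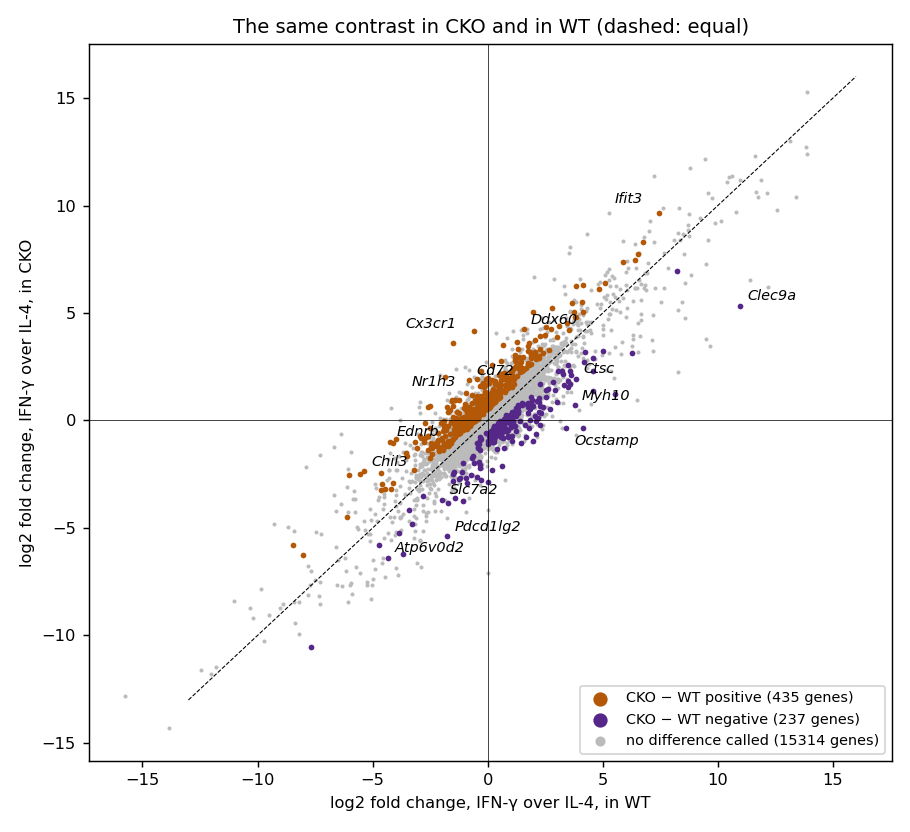
Each point is 1 of 15986 genes, with its log2 fold change, IFN-γ over IL-4, in WT on the x axis and in CKO on the y axis, and the dashed line marks equal values. Orange marks the 435 genes with a more positive and purple the 237 with a more negative value in CKO past the test of the difference, and the bulk of the genes lies along the line.

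Among the antiviral genes, 20 of 44 had a more positive log2 fold change in CKO past the test of the difference and none a more negative one, beside 2.72% and 1.48% of all genes. Ddx60, a helicase of the antiviral response, had 135 and 127 CPM after IFN-γ and 8.94 and 4.97 CPM after IL-4 in CKO. In WT it had 15.2 and 17.3 CPM after IFN-γ and 6.46 and 4.72 CPM after IL-4, a difference of 2.67 ± 0.34 on the log2 scale (adjusted p = 0.0042). Ifit3 had 80.0 and 81.5 CPM after IFN-γ and 0.627 and 0.337 CPM after IL-4 in WT, so the difference was 2.22 (adjusted p = 0.00865). It was lost, with an adjusted p of 0.117, without IL-4 WT library 1. The count of 20 was 9 and 5 without IL-4 WT libraries 1 and 2, 6 and 8 without IFN-γ CKO libraries 1 and 2, and 11 in a fit over all 12 libraries. Of the 20 GTPases, 1 passed the test of the difference, Igtp, with 1.06 (adjusted p = 0.00464). That count was 5 more positive without IL-4 CKO library 1, 3 more negative without IL-4 CKO library 2, and 2 more positive and 1 more negative with DESeq2. Of 45 cell cycle genes, 16 were more negative in CKO, beside 1.48% of all genes. Ccnb2 had 30.6 and 30.8 CPM after IFN-γ and 50.5 and 50.9 CPM after IL-4 in CKO. In WT it had 51.3 and 55.2 CPM after IFN-γ and 42 and 44.6 CPM after IL-4 (-1.03 ± 0.13, adjusted p = 0.00361). That count was 31 without IL-4 CKO library 1, 5 without IL-4 WT library 1, IL-4 WT library 2 or IFN-γ CKO library 1, and 6 without IFN-γ CKO library 2.

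Of the genes with the most positive differences, Ednrb, an endothelin receptor, had 207 and 205 CPM after IFN-γ and 401 and 419 CPM after IL-4 in CKO. In WT it had 12.8 and 14.6 CPM after IFN-γ and 248 and 279.7 CPM after IL-4 (3.26 ± 0.14, adjusted p = 5.92e-06). Both IFN-γ libraries of WT lay far below the other 6 cytokine-treated libraries. Chil3 had 13.9 and 15.1 CPM after IFN-γ and 753 and 448 CPM after IL-4 in WT (2.99 ± 0.31, adjusted p = 0.00216). Nr1h3 and Cd72, an inhibitory C-type lectin, had opposite signs in the genotypes: Nr1h3 had a log2 fold change of 1.28 in CKO and -0.96 in WT, and Cd72 had 1.88 in CKO and -0.81 in WT (adjusted p of the difference 5.24e-04 and 9.43e-04). Among the most negative, Ocstamp, a partner of Dcstamp in cell fusion, had 11.4 and 10.6 CPM after IFN-γ and 14.4 and 13.9 CPM after IL-4 in CKO. In WT it had 105 and 97.6 CPM after IFN-γ and 9.40 and 10.01 CPM after IL-4 (-3.76 ± 0.15, adjusted p = 5.45e-06). Myh10, non-muscle myosin IIB, had 7.33 and 6.46 CPM after IFN-γ and 4.23 and 4.24 CPM after IL-4 in CKO. In WT it had 55.2 and 56.4 CPM after IFN-γ and 4.10 and 4.04 CPM after IL-4 (-3.08 ± 0.17, adjusted p = 4.60e-05). Zyx, an actin adaptor, had a log2 fold change of -0.23 in CKO and 2.26 in WT, and the integrin Itga1 had 0.10 in CKO and 2.17 in WT. In these 4 genes the WT libraries with IFN-γ stood above all CKO libraries.

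Irf8 and Arg1 did not pass the test of the difference. Irf8 had 512 and 501 CPM after IFN-γ and 70.8 and 65.5 CPM after IL-4 in WT, which gave a log2 difference, CKO minus WT, of 0.04 ± 0.15 (adjusted p = 0.925). Arg1 had 26.1 and 29.6 CPM after IFN-γ and 2920.3 and 2393 CPM after IL-4 in WT, a log2 difference of -1.09 ± 0.27 (adjusted p = 0.0553). Nos2 had no count in either IL-4 library of WT, so no difference in fold is given. Pdcd1lg2 was among the IL-4 genes that differed, with 2.07 and 1.72 CPM after IFN-γ and 5.98 and 6.84 CPM after IL-4 in WT (-3.62 ± 0.57, adjusted p = 0.00922), a call lost on leaving out either IFN-γ CKO library. Over the IL-4 effector list, 5 of 28 had a more positive and 7 a more negative log2 fold change in CKO past this test, beside 2.72% and 1.48% of all genes. Those counts were 2 and 3 without IL-4 WT library 1, 3 and 2 without IL-4 WT library 2, 2 and 2 without IFN-γ CKO library 1, and 2 and 1 without IFN-γ CKO library 2, and 8 were more positive without IL-4 CKO library 1.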

How the data were processed

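The deposited table holds raw read counts per gene for 12 libraries of mouse bone marrow-derived macrophages, WT or CKO, untreated or given IFN-γ or IL-4. Per the submitters' processing notes, reads were processed with tools that included HTSeq 0.6.1 and TopHat2 2.0.13, besides Picard 1.97 and CASAVA 1.8.2. The notes name the builds mm10 and GRCh38 without a role; no source used here gives the annotation or the strand setting, so overlapping genes on opposite strands may share counts. Per the labels' protocols the libraries were made with an exome capture kit, which measures only the targeted transcripts.

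Genes were tested with edgeR 4.0.16 in R 4.3.3 (TMM factors, filterByExpr, robust quasi-likelihood fit) over the 8 cytokine-treated libraries as 4 group means, with 4 residual degrees of freedom, and called at a Benjamini-Hochberg adjusted p under 0.05. The test of the difference between CKO and WT came from the same fit. Standard errors are approximate: each log2 fold change was divided by the root of its F statistic. A group at 0 counts was set to a floor of 3 counts. Of 48440 genes, 23821 had no count in these libraries and 15986 were tested. The 4 libraries of the contrast held 28021889 to 32626864 counts. Positions came from GENCODE on GRCm38, with 15914 identifiers matched.

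Members, lists and tests were chosen with earlier results of these data known. The genes named were 160 picked by rule, besides others that the rule picked and that are not reported here: the 12 largest increases and decreases above a mean log2 CPM of 4, up to 3 members per list and direction by adjusted p, the 6 most positive and 6 most negative differences above a mean log2 CPM of 3, and Irf8, Lyz2, Arg1 and Nos2. A further 56 genes, and Gvin1, Tor3a, Ifi30, Ch25h, Flt1 and Cd83, were chosen after their values were seen. Alternatives were DESeq2 1.42.0, its size factors, no filter and a stricter one (mean CPM of at least 5), a fold threshold, other sets of libraries, a block on the library number and each library left out. The scripts were tested on simulated data.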

Additional observations from a re-analysis of the deposited data

Results flagged for a closer look

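The 66 results below were picked out because the IFN-γ against IL-4 contrast differed between CKO and WT macrophages by a test of that difference (edgeR's quasi-likelihood test, adjusted p under 0.05). All 66 are genes named by rule or chosen after their values were seen, out of 672 with such a difference among 15986 tested. No group had enough libraries for a search for single outlying samples. Untreated CKO library 1, known from earlier work on these data to stand apart, was no part of these tests.

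Genes with a more positive value in CKO were as follows, antiviral and other interferon-response genes first. Such a value can be a larger rise, a smaller fall or a change of sign. Chil3, Chil4, Klf4, Irf4, Itgb3, Clec10a and Ednrb, among others, were lower after IFN-γ in CKO. The log2 difference, CKO minus WT, was 2.67 for Ddx60, 2.22 for Ifit3, 1.55 for Ifit1, 1.28 for Isg15 and 1.23 for Ifit2. Further down the interferon response it was 1.06 for Igtp, 1.0 for Irf7 and 0.78 for Bst2. In antigen presentation it was 0.83 for H2-K1, 0.71 for Tap2 and 0.63 for Psmb8. Among sensors, complement and lectins it was 2.20 for Clec4e, 2.03 for Cd14, 1.49 for C3, 1.27 for Tlr3, 1.27 for Clec10a, 1.11 for Casp1, 1.08 for Tlr2 and 1.06 for Marco. Among chemokine receptors and ligands it was 4.75 for Cx3cr1, 1.95 for Ccr3 and 0.75 for Ccl9. Among transcription factors and signalling genes it was 2.24 for Nr1h3, 1.85 for Klf4, 1.39 for Dusp4, 1.17 for Il2rg and 1.01 for Irf4. Among IL-4 markers, macrophage markers and other genes it was 3.26 for Ednrb, 3.09 for Chil4, 2.99 for Chil3, 2.69 for Cd72, 2.39 for Hp, 1.78 for Itgb3, 1.30 for Spp1, 1.06 for Gch1, 0.85 for Fbxl5, 0.75 for Adgre1, 0.73 for Mmp8 and 0.66 for Cd33.

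Values more negative in CKO included cell cycle genes, where the log2 difference was -1.12 for Ccnb1, -1.10 for Mki67, -1.03 for Ccnb2 and -1.01 for Cenpa. In fusion and lysosomal genes it was -3.76 for Ocstamp, -2.05 for Atp6v0d2, -1.91 for Ctsc and -1.34 for Dcstamp. In genes of adhesion and the cytoskeleton it was -3.08 for Myh10, -2.49 for Zyx, -2.07 for Itga1 and -1.39 for Pecam1. In IL-4 genes it was -3.62 for Pdcd1lg2, -2.83 for Rnase2a, -2.52 for Ccl22, -1.71 for Slc7a2, -1.35 for Egr2, -1.07 for Fn1 and -0.75 for Mrc1. In the remaining genes it was -5.61 for Clec9a, -2.49 for Batf3, -2.02 for Ephx1, -1.49 for Fcgrt, -1.17 for Ccr2, -1.05 for Cd86, -0.93 for Axl and -0.71 for Tbc1d16. A more negative value can likewise be a larger fall, a smaller rise or a change of sign. Axl, Ccr2, Cd86, Ctsc, Clec9a and Myh10 were higher after IFN-γ in CKO. Genes at very low counts in one group, Clec9a among them, have a value that depends on the prior count of the fit. Of these 66 differences, 24 passed the test under every alternative that was tried apart from the fold threshold, 42 lost it under at least 1, and none changed sign.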

How the results depend on the processing

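Of 206 called log2 fold changes of named genes, 181 stayed past the threshold under every alternative but the fold threshold, 25 lost the call under at least 1, and none changed sign. With an absolute log2 fold change of at least 1 required, 2211 genes were called in CKO (1351 higher, 860 lower) and 356 for the difference between CKO and WT (226 higher, 130 lower). Without a filter on low counts, the difference counted 1554 genes (862 higher, 692 lower). With all 12 libraries, untreated CKO library 1 among them, its lower count was 147. DESeq2 called 4669 genes in CKO, DESeq2's size factors in edgeR 5297, the 4 CKO libraries alone 4832, all 12 libraries 4877 and the stricter filter 4187, each within 1.5 times the 5293 reported. Leaving out 1 library gave 3358 to 5519 calls in CKO (1958 to 2851 higher, 1400 to 2668 lower) and 184 to 1279 for the difference (130 to 740 higher, 53 to 539 lower). The cause of these shifts was not tested. A lone library left in a group was assumed to vary like the other groups.

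Directions turned only in genes with no call. On leaving out 1 library the log2 fold change ranged from -0.053 to 0.35 for Csf1r, -0.063 to 0.28 for Itga1, -0.12 to 0.088 for Jak1, -0.19 to 0.082 for Ifngr1, -0.28 to 0.011 for Lyz2 and -0.50 to 0.020 for Zyx.

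The labels give the groups the same library numbers but no shared animal or day. Deviations of same-numbered libraries correlated at 0.227 for the CKO pair and 0.103 for the WT pair, and between -0.00196 and 0.136 for the others. With the number as a replicate block within genotype, 6061 genes were called in CKO and 1259 for the difference (764 higher, 495 lower). Ratios with counting intervals, or bounds, are given for genes with almost no counts in one group.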
